A study of Mus musculus with 6 samples.

Results

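Imprinted genes were compared between fetal livers labelled Gata4 knockout and fetal livers labelled heterozygous. The list held 47 imprinted genes of 20 clusters or single loci, all known as imprinted in the mouse, and the features, which carry Entrez gene numbers, were matched to them by symbol. A total of 45 were measured and named, out of 23279 genes tested, and 2 of the 47 listed were not analysed here. The antisense transcript Nespas is measured under its current symbol, Gnasas1.

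The mouse embryos were at embryonic day 11.5, and total RNA of the whole liver was read on 6 Affymetrix arrays, 3 in each group. The livers labelled knockout carried the Stab2-Cre transgene and were Gata4 fl/fl, and the control livers are titled Stab2Cre and Gata4 heterozygous, so both groups are given as carrying the transgene. All came from matings of Stab2-Cre tg/wt, Gata4 fl/wt mice with Gata4 fl/fl mice, with the floxed allele of the line B6;129-Gata4tm1.1Sad/J, so every embryo inherited a floxed Gata4 allele. The Stab2 gene is active in the sinusoidal endothelium of the liver, so the transgene is expected to delete Gata4, a zinc-finger transcription factor gene, in endothelial cells within an otherwise intact organ. The labels call the replicates biological but do not say how many embryos an array holds. No wild-type liver was analysed here.

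Imprinted genes are transcribed mainly from the copy inherited from a single parent, because methylation of DNA at control regions is laid down differently in egg and sperm and kept after fertilisation. Many lie in clusters where a long non-coding RNA from either parental copy silences its neighbours on the same chromosome. Several paternally expressed genes favour fetal growth and several maternally expressed genes restrain it, and many are abundant in fetal liver and decline after birth. An array value adds up both parental copies, so the allele in use was not measured, and the parent named for each gene below is background.

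Values are on the log2 scale, so a difference of 1 is a doubling, and each difference is labelled knockout minus labelled heterozygous. A gene is said to rise or fall where limma's moderated test, adjusted by the Benjamini-Hochberg method over all 23279 genes, gave an adjusted p below 0.05. The median value of an array was 5.43, and values of different genes are not comparable because their probes differ. Gata4 itself read 10.38, 10.26 and 10.64 in the livers labelled knockout, against 9.90, 9.96 and 9.87 in those labelled heterozygous, and was higher by 0.51 ± 0.12 (SE, adjusted p = 0.0409). The whole-liver signal was therefore not lower under the knockout label. It also reads cells outside the endothelium, where no deletion is expected, so it neither shows the deletion nor checks the labels. The probe positions, which would say whether the deleted part was read, are not given in the labels. The cause was not tested, and every direction below goes by the labels. Of 17 endothelial markers 4 rose and 4 fell, where 3.59% and 2.77% of all genes did, and 11 were above 0, with a median of 0.19. The pair with the smallest p, Mrc1 (-1.06 ± 0.10 SE, adjusted p = 0.00740) and Gpr182 (-1.18 ± 0.12 SE, adjusted p = 0.00813), both genes of the sinusoidal endothelium, were lower. Their direction was opposite to that of most of the 17 and does not stand for the list.

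Among the imprinted genes, 11 rose and 1 fell in the livers labelled knockout, and 33 did not pass the test. Of all genes, 3.59% rose and 2.77% fell by the same test. Those that rose were Nnat, Zim1, Usp29, Meg3, Rian, Plagl1, Asb4, Cdkn1c, Ndn, Peg3 and Airn, with differences between 0.39 and 0.89. Gatm, an enzyme of creatine synthesis, fell. A difference above 0 was seen for 35 of the 45, and the median difference was 0.27, against -0.0078 over all genes, of which 48.3% were above 0. In each of the 3 livers labelled knockout the imprinted genes stood above the heterozygous mean, by medians of 0.29, 0.25 and 0.26, against 0.011, 0.019 and -0.032 in the livers labelled heterozygous. The knockout arrays lay wholly above the heterozygous arrays for 24 of the 45 genes and wholly below for 2, where 13% and 14.3% of all genes did so. In bulk tissue, fewer cells of a type and less RNA per cell cannot be told apart.

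**Figure D1:**
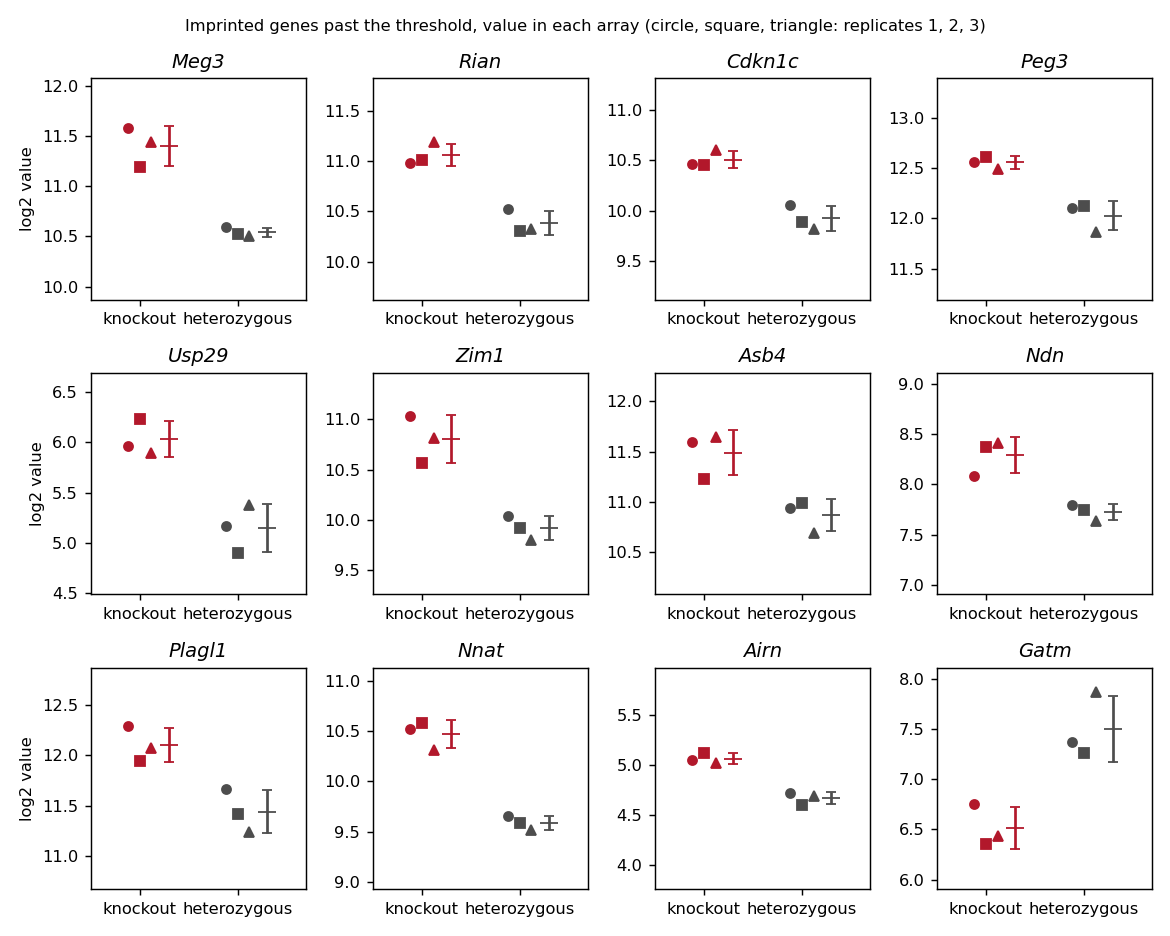
Log2 value of the 12 imprinted genes past the threshold in each array (circle, square and triangle are replicates 1, 2 and 3; the cross with bars is the mean ± SD of 3 arrays), knockout left and heterozygous right, every panel the same height in log2 units. The groups do not overlap in any of the 12 panels, and Gatm is the only panel with the knockout arrays below.

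The count of 11 depended on which arrays entered the fit. It was 6 without heterozygous replicate 1, 2 without heterozygous replicate 2, 0 without heterozygous replicate 3, 7 without knockout replicate 1, 11 without knockout replicate 2 and 2 without knockout replicate 3, while the share of all genes that rose ranged from 0.107% without heterozygous replicate 3 to 3.37% without knockout replicate 1. Without heterozygous replicate 3, 22 of the 45 still had an unadjusted limma p below 0.05 with a positive difference, against 23 with all arrays. Of all 23279 genes, 1997 did so without that array and 2578 with all arrays. All 12 genes past the threshold kept their sign in each of the 6 fits without 1 array, as did 39 of the 45.

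The embryos' sex was not balanced. Xist, which is transcribed from the inactive X chromosome, read 10.71, 10.34 and 10.31 in the 3 livers labelled knockout, against 3.58, 10.19 and 3.96 in those labelled heterozygous, and the Y-linked genes Uty, Kdm5d and Eif2s3y ran the opposite way. With an Xist-based sex term in the limma fit the comparison rests on heterozygous replicate 2 as the lone matching control, and 0 imprinted genes and 3 genes in all passed the threshold. In that fit 32 of 45 differences were above 0, where 11496 of all 23279 genes were. Their median was 0.24 over the 45, and all 12 genes past the threshold without the sex term kept their sign.

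Clusters differed in how many members passed the test, which the plot by cluster shows. In the Peg3 cluster 3 of 3 measured members rose. In the Dlk1-Dio3 domain 2 of 6 rose, in the Kcnq1 domain 1 of 8, in the Peg10 cluster 1 of 5 and in the Snrpn domain 1 of 5. The share that rose was 3.59% of all genes and 6.36% of those with a mean at or above the array median. Whether clusters differ from each other was not tested, since members of a cluster share control regions and are not independent.

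**Figure D2:**
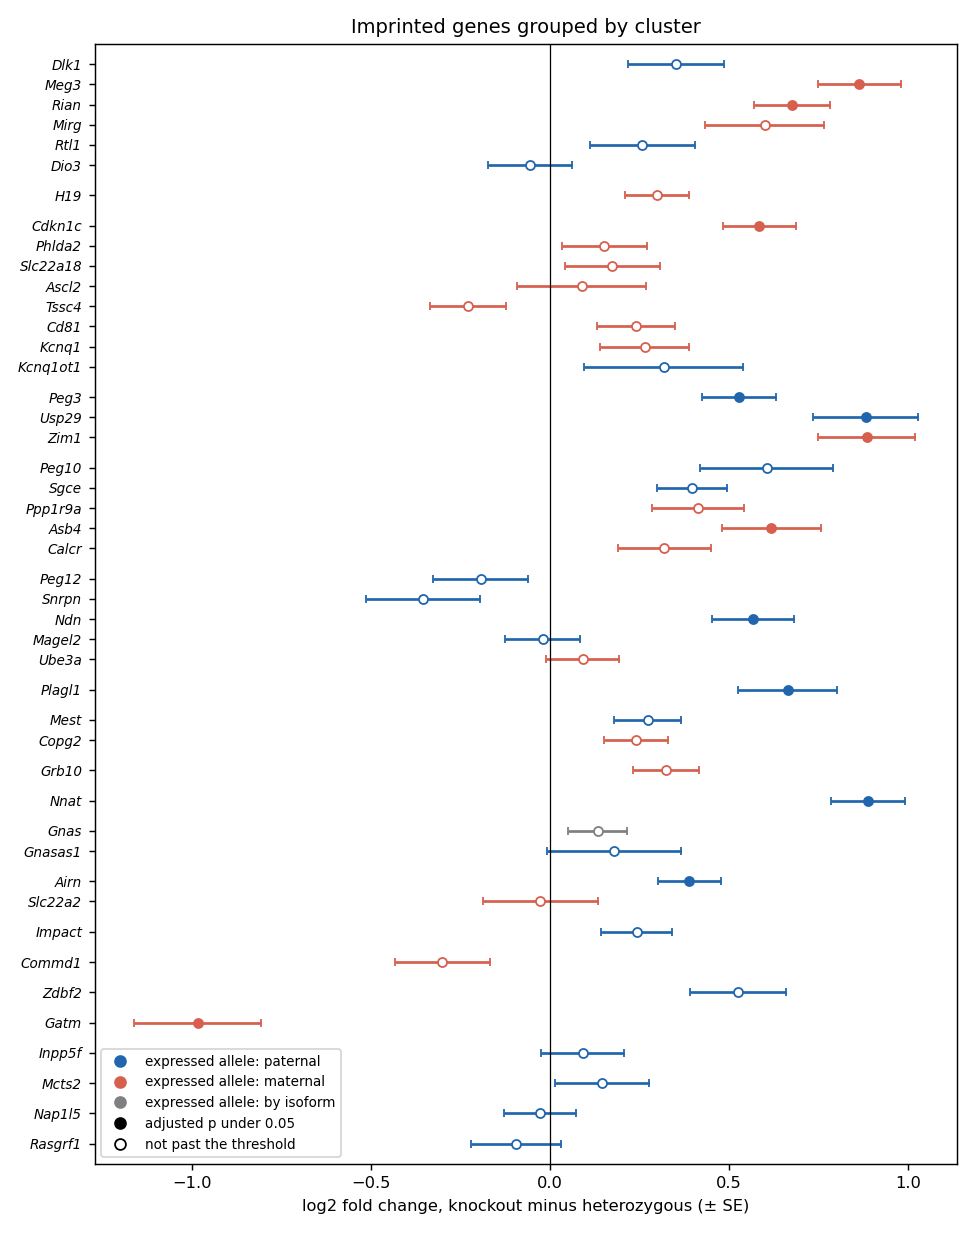
Difference in log2 value, knockout minus heterozygous, with its SE for each of the 45 imprinted genes, grouped by cluster and coloured by the expressed parental copy; filled points have an adjusted p below 0.05. Of the 45 points 35 lie right of 0, and the Snrpn domain is the largest group with most of its points left of 0.

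The Peg3 cluster holds Peg3, a paternally expressed zinc-finger gene, Usp29, a paternally expressed member of the ubiquitin-specific protease family, and Zim1, a maternally expressed zinc-finger gene. Peg3 read 12.56, 12.62 and 12.49 in the livers labelled knockout, against 12.11, 12.12 and 11.86 in those labelled heterozygous. Usp29 read 5.97, 6.23 and 5.89 in knockout-labelled livers, against 5.16, 4.90 and 5.38 in heterozygous ones. Zim1 read 11.04, 10.56 and 10.81 in livers with the knockout label, against 10.04, 9.92 and 9.80 in heterozygous livers. For all 3 genes the lowest knockout array was above the highest heterozygous array, and the order of the arrays within a group was not the same in all 3 genes. The differences were 0.53 ± 0.10 (SE, adjusted p = 0.0299) for Peg3, 0.88 ± 0.15 (SE, adjusted p = 0.0191) for Usp29 and 0.88 ± 0.14 (SE, adjusted p = 0.0160) for Zim1, or 1.44-fold, 1.84-fold and 1.85-fold. Zim1 was past the threshold in 3 of the 6 fits without 1 array (lost without knockout replicate 3 or heterozygous replicate 2 or 3, adjusted p = 0.0532 to 0.0725), Usp29 in 2 (lost without knockout replicate 3 or heterozygous replicate 1, 2 or 3, adjusted p = 0.0528 to 0.0567), and Peg3 in 0, with adjusted p between 0.0542 and 0.106. Peg3os, a transcript antisense to Peg3 that is not among the listed genes and was chosen after its values were seen, was higher by 0.81 ± 0.15 (SE, adjusted p = 0.0278).

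Peg3 and Usp29 are transcribed in opposite directions from a shared start region that carries maternal methylation. In the RefSeq promoter table of GRCm38.p6, whose windows run from 250 bases before to 50 after a gene's start, their windows share 263 of 300 bases. The 250 bases before the Peg3 start, at chr7:6730420-6730669 on the minus strand, are shown because a single stretch serves both genes that rose.
Peg3: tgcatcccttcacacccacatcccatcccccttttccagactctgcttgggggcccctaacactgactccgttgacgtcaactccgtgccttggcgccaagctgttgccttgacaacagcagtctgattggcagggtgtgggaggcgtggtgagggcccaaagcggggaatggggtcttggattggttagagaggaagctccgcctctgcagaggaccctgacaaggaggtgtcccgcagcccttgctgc
No part of it is in capitals, which in the promoters printed further on mark the letters TGCCGC on either strand, the sequence that the imprint-keeping protein ZFP57 binds when methylated. No match says only that these letters are not in this window.

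In the Dlk1-Dio3 domain the maternally expressed non-coding genes are followed along the chromosome by arrays of small nucleolar RNA and microRNA genes, and Dlk1, Rtl1 and Dio3 are expressed from the paternal copy. Meg3, the long non-coding RNA at the start of the maternal transcripts, read 11.58, 11.19 and 11.44 in the livers labelled knockout, against 10.59, 10.52 and 10.51 in the livers labelled heterozygous. Rian, the host of the small nucleolar RNAs, read 10.99, 11.01 and 11.19 in knockout-labelled livers, against 10.53, 10.30 and 10.32 in heterozygous ones. For Meg3 and Rian the gap between the groups was wider than the range within either. Meg3 rose by 0.86 ± 0.12 (SE, adjusted p = 0.0126), which is 1.82-fold, and Rian by 0.68 ± 0.11 (SE, adjusted p = 0.0167), which is 1.60-fold. Meg3 was past the threshold in 5 of 6 fits without 1 array (lost without heterozygous replicate 3, adjusted p = 0.0603), and Rian in 3 (lost without knockout replicate 3 or heterozygous replicate 2 or 3, adjusted p = 0.0571 to 0.0764). Mirg, the host of many of the microRNAs, read 8.42, 7.78 and 8.20 under the knockout label, against 7.38, 7.68 and 7.54 under the heterozygous label. Its knockout replicate 2 was only just above heterozygous replicate 2, and the difference of 0.60 ± 0.17 (SE, adjusted p = 0.0732) did not pass.

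The paternally expressed genes of the domain did not pass the test. Dlk1, a membrane protein of hepatoblasts that modulates Notch signalling, read 11.74, 11.28 and 11.72 in knockout-labelled livers, against 11.24, 11.19 and 11.25 in heterozygous ones, a difference of 0.35 ± 0.13 (SE, adjusted p = 0.165). Knockout replicates 1 and 3 of Dlk1 stood well above the controls, while replicate 2 lay near them. Rtl1, a retrotransposon-derived gene of placental capillaries, differed by 0.26 ± 0.15 (SE, adjusted p = 0.362), and Dio3, the deiodinase that inactivates thyroid hormone, by -0.056 ± 0.12 (SE, adjusted p = 0.849). Dio3 and, of the other listed genes, Rasgrf1 are among the dimmest 25% of genes on these arrays, where a level cannot be told from background.

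The small RNA genes between Dlk1 and Dio3 were added after the values of the domain had been seen. Of 52 measured microRNA genes 12 rose and 0 fell by limma (34 and 1 at an unadjusted p below 0.05), and 49 were above 0, with a median of 0.65. Of 6 small nucleolar RNA genes 3 rose, DQ267102 by 1.11 ± 0.23 (SE, adjusted p = 0.0347), AF357355 by 0.81 ± 0.18 (SE, adjusted p = 0.0402) and AF357426 by 0.61 ± 0.11 (SE, adjusted p = 0.0240), and all 6 were above 0. Elsewhere in the genome the median was 0.011 over 487 microRNA genes, of which 10 rose, and 0.029 over 100 small nucleolar RNA genes, of which 2 rose. The other microRNA genes were dimmer, with a mean log2 value of 4.10 in heterozygous replicate 2, against 5.13 for those of the domain. The 25th percentile of an array was 3.72. This contrast was not matched for level, so it does not show that the rise in microRNA genes was particular to the domain. For small nucleolar RNA genes the means in that array were 8.66 elsewhere and 8.53 in the domain. The small RNA features read RNA that contains the gene, such as a host transcript or precursor, and not the mature microRNA. Over the 58 small RNA genes the medians of the arrays were 1.07, 0.34 and 0.68 in the livers labelled knockout, against -0.037, 0.017 and -0.016 in the livers labelled heterozygous, so knockout replicate 2 had the smallest shift and replicate 1 the largest. The count of 15 that rose was 2, 3 and 0 without heterozygous replicate 1, 2 or 3, and 7, 27 and 2 without knockout replicate 1, 2 or 3.

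**Figure D3:**
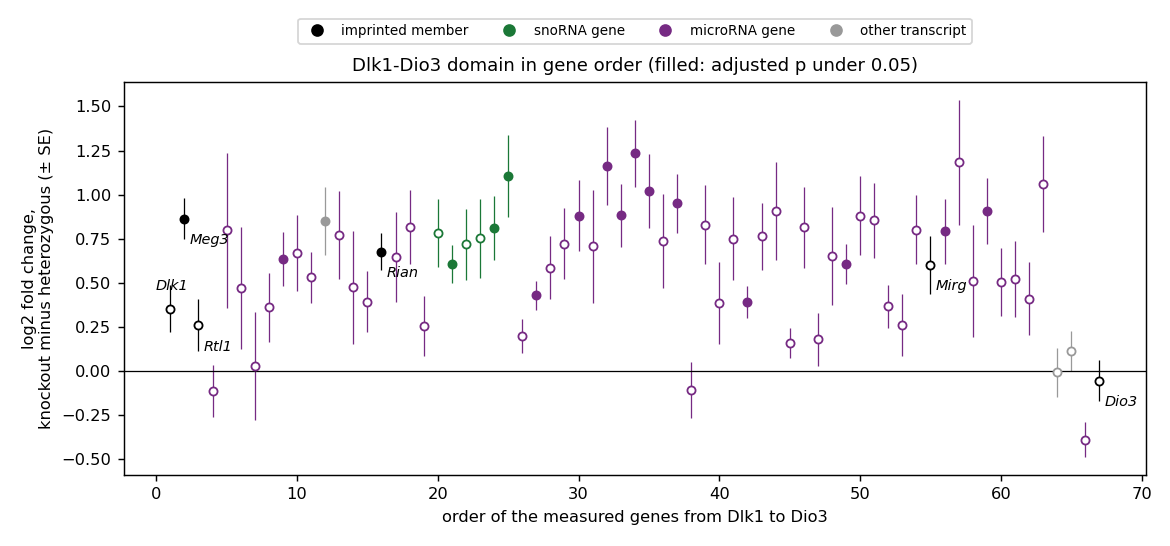
Difference in log2 value, knockout minus heterozygous, with its SE for each measured gene from Dlk1 to Dio3 in chromosome order; filled points have an adjusted p below 0.05. The points from Meg3 to Mir369 lie above 0 apart from Mir673 and Mir666, and the last 4 genes, ending with Dio3, lie between -0.39 and 0.11.

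Mir329 had the largest difference of the small RNA genes that rose, with 9.53, 8.99 and 8.92 in knockout-labelled livers, against 8.10, 7.62 and 8.02 in heterozygous livers, a difference of 1.23 ± 0.19 (SE, adjusted p = 0.0161). Mir323 read 8.20, 7.27 and 7.66 under the knockout label, against 6.55, 6.36 and 6.73 under the heterozygous label, a difference of 1.16 ± 0.22 (SE, adjusted p = 0.0280). In Mir494 the values were 5.46, 5.34 and 5.79 in livers labelled knockout, against 4.39, 4.98 and 4.17 in livers labelled heterozygous, a difference of 1.02 ± 0.21 (SE, adjusted p = 0.0339). None of these 3 overlapped between the groups. Mir1193 also rose (0.95 ± 0.17 SE, adjusted p = 0.0225). Of the other microRNA genes that rose, Mir377, Mir758, Mir380, Mir453, Mir3070a and Mir539, the differences ran from 0.61 to 0.91. The remaining 2 of the 12, Mir379 (0.43 ± 0.083 SE, adjusted p = 0.0289) and Mir376c (0.39 ± 0.092 SE, adjusted p = 0.0465), are, like Dio3, among the dimmest 25% of genes, so their levels cannot be told from background. In all, 11 of the 58 small RNA genes are that dim. In the fit without such genes 19 of the other 47 rose, where 5.23% of all genes in that fit did. Mature sequences from RefSeq with GRCm38.p6 are shown for 5 of the genes above, since microRNAs with the same seed would act on the same sites. All 52 microRNA genes matched that table, and capitals mark the seed, bases 2 to 8, through which a microRNA pairs with its targets.
miR-329-3p: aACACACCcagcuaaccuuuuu
miR-323-3p: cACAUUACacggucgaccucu
miR-494-3p: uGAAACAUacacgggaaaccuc
miR-1193-5p: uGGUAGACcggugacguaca
miR-379-5p: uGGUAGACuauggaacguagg
Mir1193 and the dim Mir379 share the seed of their 5p strands. No other gene of the domain's 52 has the seed of miR-329-3p, miR-323-3p or miR-494-3p.

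In the Kcnq1 domain, where the paternal non-coding RNA Kcnq1ot1 silences maternally expressed genes in cis, Cdkn1c was the only one of 8 measured members to rise. Cdkn1c, which encodes the cell cycle inhibitor p57, read 10.47, 10.46 and 10.60 in the livers labelled knockout, against 10.06, 9.89 and 9.82 in those labelled heterozygous. The groups lay 0.59 ± 0.10 (SE, adjusted p = 0.0221) apart, or 1.50-fold. It was past the threshold in 3 of 6 fits without 1 array (lost without knockout replicate 3 or heterozygous replicate 2 or 3, adjusted p = 0.0717 to 0.0951). Kcnq1ot1 itself read 6.90, 6.64 and 6.37 in knockout-labelled livers, against 6.08, 6.82 and 6.07 in heterozygous livers. Heterozygous replicate 2 was higher than 2 of the 3 knockout arrays, and the difference of 0.32 ± 0.22 (SE, adjusted p = 0.472) did not pass and took the opposite sign, -0.18, against that array. The other 6 lay between -0.23 and 0.27: the potassium channel gene Kcnq1 (0.27), in which Kcnq1ot1 lies, the tetraspanin gene Cd81 (0.24), the transporter-like Slc22a18 (0.17), the placental growth-restraining gene Phlda2 (0.15), the trophoblast factor Ascl2 (0.089) and the spliceosome assembly gene Tssc4 (-0.23). Tssc4 was the only one of the 8 with every knockout array below every heterozygous array. In the neighbouring H19-Igf2 locus the maternal non-coding RNA H19 read 12.52, 12.53 and 12.62, against 12.18, 12.33 and 12.26 in the heterozygous livers, a difference of 0.30 ± 0.089 (SE, adjusted p = 0.0919) with no overlap, and Igf2, the paternally expressed growth factor, which is not among the listed genes, differed by 0.31 ± 0.10 (SE, adjusted p = 0.112).

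The Peg10 cluster had all 5 measured members higher in each knockout-labelled array than in each heterozygous array, where 13% of all genes were. Their differences ran from 0.32 to 0.62, though only Asb4 passed, and members of a cluster are not independent. Asb4, a maternally expressed ankyrin repeat and SOCS box gene, read 11.60, 11.23 and 11.65 in knockout-labelled livers, against 10.94, 10.99 and 10.69 in heterozygous livers. It rose by 0.62 ± 0.14 (SE, adjusted p = 0.0407) and was past the threshold in 1 of 6 fits without 1 array, the one without knockout replicate 2, with adjusted p up to 0.145. Peg10, a paternally expressed retrotransposon-derived gene needed in placenta, read 10.69, 10.20 and 10.81 under the knockout label, against 10.002, 10.19 and 9.69 under the heterozygous label. The closest arrays of Peg10 nearly met, knockout replicate 2 and heterozygous replicate 2, and its difference was 0.61 ± 0.19 (SE, adjusted p = 0.0993). Sgce, which shares the Peg10 start region and encodes epsilon-sarcoglycan, differed by 0.40 ± 0.10 (SE, adjusted p = 0.0519), the neurabin gene Ppp1r9a by 0.41 ± 0.13 (SE, adjusted p = 0.103) and the calcitonin receptor gene Calcr by 0.32 ± 0.13 (SE, adjusted p = 0.193).

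In the Snrpn domain Ndn, which encodes the MAGE-family protein necdin, read 8.09, 8.38 and 8.41 in livers labelled knockout, against 7.79, 7.74 and 7.64 in livers labelled heterozygous. Ndn rose by 0.57 ± 0.11 (SE, adjusted p = 0.0312), or 1.48-fold, and was past the threshold in 1 of 6 fits without 1 array, the one without knockout replicate 1, with adjusted p up to 0.121. Its 4 measured neighbours did not pass and overlapped between the groups: the ubiquitin ligase gene Ube3a (0.091), the MAGE-family gene Magel2 (-0.020), Peg12, which encodes a GSK3-binding protein (-0.19), and the splicing protein gene Snrpn (-0.35). The median of the domain's 5 genes was -0.020.

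Plagl1, a paternally expressed zinc-finger transcription factor also called Zac1, read 12.29, 11.95 and 12.07 in the livers labelled knockout, against 11.66, 11.42 and 11.24 in those labelled heterozygous, and rose by 0.66 ± 0.14 (SE, adjusted p = 0.0340), or 1.58-fold. Nnat, which encodes the membrane proteolipid neuronatin and is paternally expressed, read 10.53, 10.58 and 10.32 in knockout-labelled livers, against 9.66, 9.58 and 9.52 in heterozygous ones, and had the smallest adjusted p of the 45 (0.89 ± 0.10 SE, adjusted p = 0.00932), a 1.85-fold difference. The gap between the groups was wider than the range within either for Nnat. Nnat was past the threshold in 5 of 6 fits without 1 array (lost without heterozygous replicate 3, adjusted p = 0.0536) and Plagl1 in 2 (lost without knockout replicate 1 or 3 or heterozygous replicate 2 or 3, adjusted p = 0.0657 to 0.122). Airn, the paternal non-coding RNA that runs opposite to Igf2r and silences maternal neighbours in cis, read 5.04, 5.12 and 5.02 under the knockout label, against 4.72, 4.60 and 4.69 under the heterozygous label. It rose by 0.39 ± 0.088 (SE, adjusted p = 0.0417), was past the threshold in 0 of 6 fits without 1 array, with adjusted p between 0.0721 and 0.132, and the variance-trend setting of limma gave an adjusted p of 0.111. The transporter gene Slc22a2 of the same locus differed by -0.026, and Igf2r, the receptor that clears the growth factor IGF2 and is not among the listed genes, by 0.34 ± 0.13 (SE, adjusted p = 0.165).

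Gatm, an enzyme of creatine synthesis whose imprinting has been seen in placenta, read 6.75, 6.36 and 6.44 in knockout-labelled livers, against 7.37, 7.26 and 7.87 in heterozygous livers. It fell by 0.98 ± 0.18 (SE, adjusted p = 0.0248), which is 1.98-fold lower, and heterozygous replicate 3 was the highest of the 6. The fall was past the threshold in 2 of 6 fits without 1 array (lost without knockout replicate 2 or 3 or heterozygous replicate 1 or 3, adjusted p = 0.0505 to 0.0829). Gatm has no other measured member at its locus.

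Further listed genes did not pass the test. Zdbf2, a paternally expressed zinc-finger gene, read 6.63, 6.98 and 6.52 in the livers labelled knockout, against 6.25, 6.24 and 6.06 in the heterozygous livers, a difference of 0.53 ± 0.13 (SE, adjusted p = 0.0591) with no overlap. The maternally expressed Grb10, an adaptor that inhibits insulin receptor signalling, differed by 0.32 ± 0.092 (SE, adjusted p = 0.0768), and Mest, a mesodermal enzyme of the hydrolase fold, by 0.27 ± 0.092 (SE, adjusted p = 0.127), both without overlap between the groups. Copg2, a coatomer subunit gene whose end lies against that of Mest, differed by 0.24 ± 0.089 (SE, adjusted p = 0.156), and Impact, an inhibitor of the amino acid sensor kinase Gcn2, by 0.24 ± 0.10 (SE, adjusted p = 0.190). At the Gnas locus, the stimulatory G protein gene Gnas differed by 0.13 and its antisense RNA Gnasas1 by 0.18. The rest lay between -0.30 and 0.15: the copper metabolism gene Commd1 (-0.30), Rasgrf1, a Ras exchange factor of brain (-0.094), the retrogene Nap1l5 (-0.028), the inositol phosphatase gene Inpp5f (0.092) and the retrogene Mcts2 (0.15). With a looser threshold of 0.1, 6 more genes would pass, Mirg, H19, Peg10, Sgce, Grb10 and Zdbf2, all higher, where 6.14% of all genes were higher at that threshold. The labels do not give the strand that a feature reads, so Airn and Igf2r, Kcnq1ot1 and Kcnq1, Gnasas1 and Gnas, or Copg2 and Mest may share signal, and the retrogenes Nap1l5 and Mcts2 have close copies.

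The genes were also grouped by the parental copy in use, and a difference between these groups was not tested. Of 23 paternally expressed genes 6 rose and 0 fell by limma (12 and 0 at an unadjusted p below 0.05), 17 were above 0, and the median difference was 0.27. Of 21 maternally expressed genes 5 rose and 1 fell, 17 were above 0, and the median was 0.27. Gnas, whose parental use depends on the isoform, stood outside both groups. Paternally expressed genes with their start in a maternally methylated region, such as Peg3, Plagl1, Nnat and Airn, numbered 14, of which 5 rose with a median of 0.35. Of the 9 with their start elsewhere 1 rose, with a median of 0.092. The share of all genes that rose was 3.59%. These 2 groups also differ in level, with a mean log2 value in heterozygous replicate 2 of 8.02 for the 14 and 6.33 for the 9. Against that array alone their medians were 0.38 and -0.039. The sets overlap in the clusters they come from, so their members are not independent.

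Genes whose imprinting is seen body-wide held all 11 that rose, among 33 measured, with a median of 0.32, where 3.59% of all genes rose. The 6 known as imprinted mainly in placenta had a median of 0.031, with Gatm as the only one past the threshold, and the 5 known as imprinted mainly in brain had a median of 0.091, with 0 past limma's threshold and 1 at an unadjusted p below 0.05. The mean log2 value in heterozygous replicate 2 was 8.09 for the body-wide genes, 7.37 for placenta and 6.64 for brain. These classes thus differ in level and size, and a difference between them was not tested. The genes that rose were mostly above the array median: of 35 imprinted genes with a mean at or above the array median 10 rose and 1 fell, with a median of 0.32, where 6.36% of all genes at that level rose and 4.76% fell. Of the 10 dimmer ones, 1 rose and the median was -0.023.

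Imprinted genes outside the list gave a different count. Of 35 measured, which included Igf2 and Igf2r, 0 rose by limma (6 at an unadjusted p below 0.05) and 3 fell: Ampd3, an AMP deaminase of red cells, by 1.28, the serotonin receptor gene Htr2a by 0.80 and the paraoxonase gene Pon2 by 0.50. Their adjusted p were 0.0118, 0.0431 and 0.0492, and 20 of the 35 were above 0 with a median of 0.070. Over all genes 3.59% rose, 2.77% fell and 48.3% were above 0. The listed genes had been chosen with results of these arrays known, so the 2 counts are given side by side without a test.

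**Figure D4:**
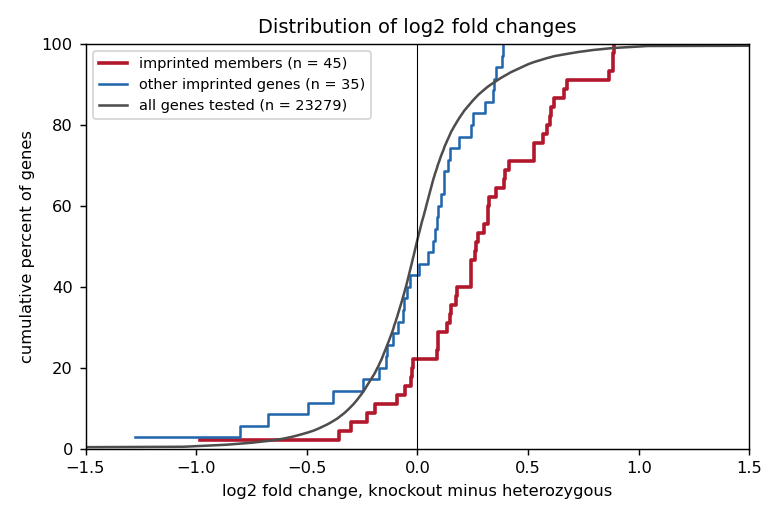
Cumulative percent of genes against the difference in log2 value, knockout minus heterozygous, for the 45 imprinted genes, the 35 other imprinted genes and all 23279 genes tested. The line of the 45 lies right of the other lines over most of its course and crosses 50% at 0.27, against 0.070 for the other imprinted genes and -0.0078 for all genes.

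Genes known to act with or on imprints were read from a list of 25 that write, keep or remove methylation. Of these 4 rose and 0 fell by limma (1 lower at an unadjusted p below 0.05), with a median over the list of 0.027. Over all genes 3.59% rose and 2.77% fell. Zfp57, the zinc-finger protein that keeps methylation at imprinting control regions, read 7.60, 8.12 and 7.79 in the livers labelled knockout, against 6.84, 6.79 and 7.02 in those labelled heterozygous, and was higher by 0.96 ± 0.14 (SE, adjusted p = 0.0151). Tet1 and Tet2, enzymes that oxidise methylated cytosine, were higher by 0.96 ± 0.12 (SE, adjusted p = 0.0104) and 0.60 ± 0.12 (SE, adjusted p = 0.0304), and Dnmt3a, a methyltransferase, by 0.45 ± 0.090 (SE, adjusted p = 0.0312). The 4 genes did not overlap between the groups, where 13% of all genes had every knockout array above. The count was 2, 1 and 0 without heterozygous replicate 1, 2 or 3, 2, 2 and 1 without knockout replicate 1, 2 or 3, and 0 with the sex term.

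Promoter windows were found for 37 of the 45 genes. TGCCGC, read on both strands, occurred in 14 of these 37, or 37.8%, against 16.2% of 17519 genes with a window. Windows of imprinted genes are rich in CpG: among genes with a window of at least 10 CpG the shares were 41.4% of 29 imprinted genes and 24.5% of 10531 genes. A match in any window of a gene was counted. The 14 were Calcr, Commd1, Copg2, Grb10, Mcts2, Meg3, Mest, Nap1l5, Nnat, Plagl1, Slc22a2, Snrpn, Zdbf2 and Zim1, and 4 of the 10 genes that rose and had a window were among them. The GATA letters AGATAA or TGATAA on either strand, which do not overlap with TGCCGC, occurred in 3 of the 37, Dlk1, Rian and Slc22a18, or 8.11%, against 17.7% of the 17519 genes. Among genes with a window of at least 10 CpG they occurred in 0 of the 29 imprinted genes and in 10.1% of the 10531 genes. A match is a string of letters and not a shown binding site. The 250 bases before the start are printed for the 3 genes that rose with TGCCGC there, which appears on the printed strand as its reverse complement in capitals: Plagl1 at chr10:13090582-13090831 (plus strand), Meg3 at chr12:109540746-109540995 (plus strand) and Zim1 at chr7:6696433-6696682 (minus strand), all in GRCm38.p6.
Plagl1: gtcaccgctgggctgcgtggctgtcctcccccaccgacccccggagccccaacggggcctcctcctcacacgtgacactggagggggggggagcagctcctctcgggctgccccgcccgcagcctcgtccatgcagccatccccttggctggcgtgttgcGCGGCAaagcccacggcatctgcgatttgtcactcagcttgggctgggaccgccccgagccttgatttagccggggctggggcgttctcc
Meg3: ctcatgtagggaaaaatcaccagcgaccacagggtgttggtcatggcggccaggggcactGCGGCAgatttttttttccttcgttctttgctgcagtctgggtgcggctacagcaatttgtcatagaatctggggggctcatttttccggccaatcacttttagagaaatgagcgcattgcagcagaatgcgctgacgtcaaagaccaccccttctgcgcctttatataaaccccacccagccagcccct
Zim1: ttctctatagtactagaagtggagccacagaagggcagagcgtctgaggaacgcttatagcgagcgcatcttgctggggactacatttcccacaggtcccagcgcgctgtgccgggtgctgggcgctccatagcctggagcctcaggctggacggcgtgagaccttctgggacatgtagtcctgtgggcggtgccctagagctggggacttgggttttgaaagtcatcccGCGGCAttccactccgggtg
In Nnat, the other gene that rose with TGCCGC in its window, the letters lie after the start, outside these 250 bases.

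Plagl1 has been tied to a network of imprinted genes by co-expression and by overexpression and knockout work in mice. Of 20 genes of that network on the list used here, 16 of them among the 45, 8 rose and 1 fell, 19 were above 0 with a median of 0.39, and 18 had every knockout array above every heterozygous array. Over all genes 3.59% rose, 2.77% fell and 13% had every knockout array above. Slc38a4, an amino acid transporter gene of the network and not among the listed genes, differed by 0.38 ± 0.094 (SE, adjusted p = 0.0535). Because 16 of the 20 genes are shared, these counts restate the values above from another side.

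Markers of several cell types moved along with the imprinted genes, as the plot of lists by array shows. For the counts below, 3.59% of all genes rose. Hepatoblast markers were higher in part, with 2 of 22 up, Tbx3 by 0.73 ± 0.11 (SE, adjusted p = 0.0142) and Foxa1 by 0.75 ± 0.14 (SE, adjusted p = 0.0266), and a median of 0.26, close to the 0.27 of the imprinted genes. Of the genes of major hepatocyte plasma proteins, chosen after their values were seen, Ttr (-0.0026), Alb (-0.046) and Afp (0.070) did not pass. Alb and Afp are among the highest values of every array, which quantile normalisation makes equal between arrays, so their small differences do not show an unchanged level. Stellate and mesenchymal markers had 7 of 22 up, led by Rgs5 (1.69 ± 0.17 SE, adjusted p = 0.00740) and Nr2f2 (0.76 ± 0.093 SE, adjusted p = 0.0104), with a median of 0.40, and mesothelial markers 3 of 11, led by Bnc1 (0.79 ± 0.10 SE, adjusted p = 0.0113) and Alcam (0.58 ± 0.12 SE, adjusted p = 0.0326). The mean log2 value of the stellate and mesenchymal list was 8.67 to 8.90 in the livers labelled knockout, against 8.30 to 8.40 in the livers labelled heterozygous. Their part in the imprinted genes' differences was not tested.

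Blood markers were lower. The share of all genes that fell was 2.77%. Of 20 erythroid markers 9 fell, led by Tal1 (-0.98 ± 0.10 SE, adjusted p = 0.00740) and Nfe2 (-0.89 ± 0.11 SE, adjusted p = 0.0106), with a list median of -0.80. The mean log2 value of the erythroid list was 8.75 to 8.91 in the livers labelled knockout. In heterozygous replicates 1, 2 and 3 it was 9.24, 9.61 and 9.98, so the controls were uneven. Macrophage and myeloid markers had 15 of 19 down, led by Mpeg1 (-1.56 ± 0.16 SE, adjusted p = 0.00740) and Marco (-1.12 ± 0.12 SE, adjusted p = 0.00813), with a median of -1.33, and their mean log2 value was 5.75 to 6.26 under the knockout label, against 7.03 to 7.44 under the heterozygous label. Megakaryocyte markers had 4 of 10 down, led by Treml1 (-1.06 ± 0.18 SE, adjusted p = 0.0197) and Gp5 (-0.87 ± 0.19 SE, adjusted p = 0.0366). Since the arrays were scaled to 1 shared distribution, a lower share of blood RNA and a higher share of other RNA cannot be told apart from changes within cells, and the part of this in the imprinted genes was not tested.

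**Figure D5:**
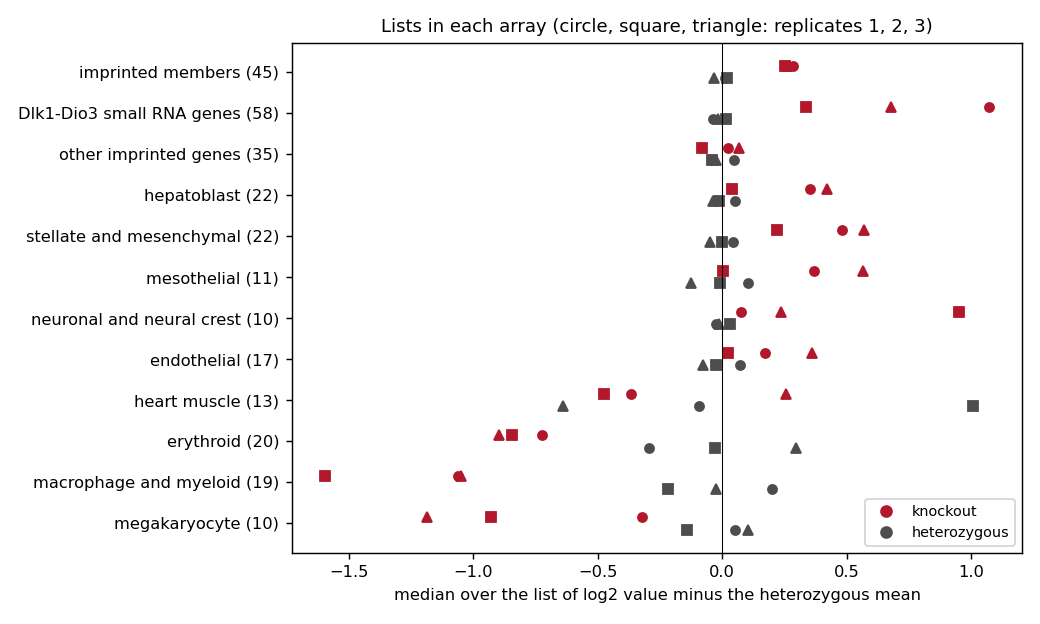
Median over each list of the log2 value minus the heterozygous mean, 1 point for each array (knockout above, heterozygous below in each row; circle, square and triangle are replicates 1, 2 and 3; the number of genes is in brackets). The 45 imprinted genes sit between 0.25 and 0.29 in the 3 knockout arrays, close together, while the hepatoblast, mesenchymal and small RNA lists spread further and have their lowest knockout value in replicate 2.

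Markers of neighbouring tissue were uneven between arrays. Neuronal and neural crest markers had a mean log2 value of 6.20 in knockout replicate 2 and of 5.09 and 5.19 in the other two knockout arrays, against 4.88 to 5.04 in the heterozygous arrays. Of their 10 genes 2 rose, Ncam1 (0.76 ± 0.11 SE, adjusted p = 0.0128) and Dcx (0.83 ± 0.18 SE, adjusted p = 0.0357), where 3.59% of all genes did. Ncam1 read 9.31, 9.33 and 9.36 in the knockout arrays, with no excess in replicate 2, and Dcx 5.33, 6.05 and 5.80. Several imprinted genes, among them Ndn, Peg3 and Nnat, are also active in neurons, and the part of neural tissue in their differences was not tested. Without knockout replicate 2, Ndn (0.53, an adjusted p of 0.0652) and Peg3 (0.50, an adjusted p of 0.0604) no longer passed, and Nnat differed by 0.83 with an adjusted p of 0.0147. Ndn passed in only 1 of the 6 fits without 1 array and Peg3 in 0, so their loss is not particular to that array. Of the 13 heart muscle markers 0 passed by limma (1 lower at an unadjusted p below 0.05). They stood highest in heterozygous replicate 2, with a list median of 1.01 above the heterozygous mean, and next in knockout replicate 3, with 0.26. Their 2 smallest p belonged to Myh7 (-0.31) and Nkx2-5 (-0.42). Of the 13 placenta and yolk sac markers 0 passed by limma (2 lower at an unadjusted p below 0.05), with Rhox9 (-0.34) and Apom (-0.39) the smallest in p. Knockout replicate 2 was the lowest of the 3 knockout arrays in 19 of the 45 imprinted genes, replicate 3 in 17 and replicate 1 in 9.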

How the data were processed

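The authors deposited log2 values. They come from RMA according to the submitters' processing notes, where no version stands, and neither the chip definition nor its build was found in the labels. RMA corrects background, quantile-normalises arrays and then summarises probes. Sorted values of the features were also identical in all 6 arrays, and the step that made them so was not determined. With 1 distribution for every array, a general shift of expression would be invisible, and precision is set by the number of arrays. Of 24479 features 23281 were named from the platform annotation, with symbols brought up to date from RefSeq (GRCm38.p6), and 1198 had no name here. Where 2 features shared a name the one with the higher mean was kept, which left 23279 genes. All value columns were matched to samples, leaving 0 unmatched.

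The test was limma's lmFit and eBayes (version 3.58.1 under R 4.3.3) on 3 arrays labelled knockout against 3 labelled heterozygous, with no covariate, 4 residual and 4.06 prior degrees of freedom, and Benjamini-Hochberg adjustment over all genes. Errors are moderated standard errors. An exact permutation test of 3 against 3 arrays cannot give a two-sided p below 0.1. The members, lists and tests were chosen with earlier results of these data known. Named were every measured member, other imprinted and imprint maintenance genes past the threshold, at most 2 genes of each marker list by smallest p, Gata4 and sex-linked genes. Igf2, Igf2r, Peg3os, Slc38a4, Alb, Afp, Ttr and the small RNA genes lie outside this rule and were chosen after their values were seen. The alternatives were array weights, a variance trend, robust eBayes, the mean of features sharing a name, a replicate block, a sex term, leaving out X and Y genes, dim genes or each array, and an adjusted p of 0.1. Comparison with heterozygous replicate 2 alone, and all alternatives for the small RNA and imprint maintenance genes, were added after seeing the data. Same-numbered arrays did not deviate together, so replicate numbers were not taken as pairs, though a pairing is not excluded.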

Additional observations from a re-analysis of the deposited data

How the results depend on the processing

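The count of 14 that rose was the same under 3 settings but not over the same genes: array weights added Mirg, Peg10 and Sgce, a variance trend added H19, Sgce, Mest and Grb10 and lost Airn, and leaving out the dimmest 50% of genes added Mirg, Sgce, Grb10 and Zdbf2 and left out Airn. The share of all genes in the fit that rose was 4.08% with array weights, 4.39% with a variance trend and 9.56% without the dimmest 50%. That last fit held 35 of the 45, so the equal counts are not equal results. A replicate block left 5 up and 1 down, without Cdkn1c, Peg3, Usp29, Asb4, Ndn and Airn, and 405 genes up and 281 down among all genes, where 836 and 644 stood without a block. Same-numbered arrays had correlations of their deviations from the group means of -0.0518, -0.0110 and -0.0767. No shared deviation by number was seen, but this cannot show that such arrays were not paired. With the sex term, or against heterozygous replicate 2 alone, only 1 matching control array is left and every call is lost. In both fits 32 of the 45 differences were above 0. With a threshold of 0.1, 17 rose. Leaving out 1 array gave 0 to 11 up and 0 to 1 down. The median of the 45 was 0.24 with the sex term or against heterozygous replicate 2, 0.32 without the dimmest 50%, and 0.23 to 0.32 without 1 array. The maternal median was 0.29 with array weights, 0.24 with the sex term or against heterozygous replicate 2, 0.30 without the dimmest 50%, and 0.24 to 0.33 without 1 array, and the paternal median 0.23 to 0.32. The small RNA genes that rose numbered 28 with array weights, 23 with a variance trend, 5 with a replicate block and 0 with the sex term.

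Signs turned only in genes that did not pass. With the sex term or against heterozygous replicate 2, they were Kcnq1ot1 (-0.18), Ube3a (-0.054), Inpp5f (-0.046), Mcts2 (-0.018) and Nap1l5 (0.047). Without heterozygous replicate 1 they were Ascl2 (-0.021) and Magel2 (0.022), without replicate 2 Dio3 (0.039), and without replicate 3 Slc22a2 (0.036), Inpp5f (-0.0093) and Nap1l5 (0.021). Without knockout replicate 1 they were Magel2 (0.056) and Nap1l5 (0.025), and without replicate 3 Ascl2 (-0.039) and Slc22a2 (0.14). Over the 6 fits without 1 array, Dio3 ran from -0.13 to 0.039, Ascl2 from -0.039 to 0.26, Magel2 from -0.071 to 0.056, Slc22a2 from -0.17 to 0.14, Inpp5f from -0.0093 to 0.16 and Nap1l5 from -0.088 to 0.025. The robust fit, the mean of features sharing a name and the fits without X and Y genes or the dimmest 25% changed no call of the members they kept (43 without the dimmest 25%). The cause of these changes was not tested. The 3 arrays of each group limit the precision, and no signal over background was given for dim genes.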
